A study of Homo sapiens with 6 samples.

Results

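MYC, NPM1 and PA2G4 are 3 of the 6018 genes in a table that compares 2 conditions of the prostate cancer line C4-2B by RNA sequencing. They were taken as the rows with those symbols. The samples are 3 libraries of parental C42B cells, passaged in 1% DMSO and given as passage 0, and 3 of C42-B-Abi, given as passage 15 to 18. C4-2B is a castration-tolerant descendant of the LNCaP line. C42-B-Abi is a subline of it that was selected for at least 6 months in abiraterone rising from 1 to 20 µM, and then held in 5 µM; abiraterone blocks the androgen-synthesis enzyme CYP17A1. All cells grew in medium with 10% serum. The protocol also names 10 µM abiraterone before RNA extraction, in wording that does not settle which line received it. Libraries were read as 50 bp single ends, and nothing in the labels says that the 3 of a group were separate cultures. The authors' p-values set each difference against the scatter among these libraries only, which may in part be technical.

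No value per library was used here, so depth is unknown and no test across libraries was made. The authors' deposited table gives, for each gene, a mean normalised count across the samples and the log2 fold change of condition C over condition V from DESeq2. Its header names C control and V vehicle and ties neither to a cell line. Titles of the parental libraries carry a V. Each direction is therefore given as higher in C or in V. Every listed gene has a log2 fold change of 1.20 or more in size and an unadjusted p under 0.05, so a gene that is not listed may have missed either limit. A gene is called here when its listed adjusted p is under 0.05. Of all listed genes, 89.4% were called, 46.0% as higher in C and 43.4% as higher in V; of listed protein-coding genes, 92.6% were called, 31.6% as higher in C and 61.0% as higher in V. All 3 genes were called. They were chosen with this comparison known, so their own values are a description and test nothing.

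MYC is a transcription factor that pairs with MAX and binds E-box sequences. It raises the genes of ribosome assembly, nucleotide synthesis and cell-cycle entry, and gain of MYC is common in advanced prostate cancer. Nucleophosmin, the product of NPM1, is an abundant nucleolar chaperone that takes part in large-subunit assembly and export and holds the tumour suppressor ARF in the nucleolus. PA2G4 encodes EBP1, named for binding the receptor ERBB3. EBP1 lies in the nucleolus and on ribosomes and takes part in growth control.

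NPM1 and PA2G4, unlike MYC, have processed copies in the genome, 45 named for NPM1 and 5 for PA2G4. Such copies are pseudogenes made from spliced messages. These matter here because a 50 bp read may not tell copy from parent. A stretch of the NPM1 coding sequence, bases 271 to 330 counted from the A of the start codon, is shown with 7 copies whose fold changes ran in opposite directions. The copies are those with the highest means (NPM1P5, NPM1P31), the farthest shifts to C (NPM1P8, NPM1P26) and all 3 called as higher in V. Sequences are 5′ to 3′ on the strand of the gene, from GENCODE release 29 (GRCh38), and capitals mark bases that differ from NPM1.
NPM1: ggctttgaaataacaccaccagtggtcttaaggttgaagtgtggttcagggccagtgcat
NPM1P5: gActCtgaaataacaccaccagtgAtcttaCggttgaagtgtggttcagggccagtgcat
NPM1P31: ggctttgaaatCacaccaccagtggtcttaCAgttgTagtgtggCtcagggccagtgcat
NPM1P8: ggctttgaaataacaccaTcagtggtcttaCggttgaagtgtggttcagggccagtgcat
NPM1P26: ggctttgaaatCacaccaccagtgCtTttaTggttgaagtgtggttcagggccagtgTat
NPM1P24: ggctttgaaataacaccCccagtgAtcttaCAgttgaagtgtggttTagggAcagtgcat
NPM1P37: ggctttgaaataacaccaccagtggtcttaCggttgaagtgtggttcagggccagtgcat
NPM1P46: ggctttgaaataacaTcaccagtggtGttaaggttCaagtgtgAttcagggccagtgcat

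The single listed copy of PA2G4 is shown in the same way beside the first 60 coding bases of its parent.
PA2G4: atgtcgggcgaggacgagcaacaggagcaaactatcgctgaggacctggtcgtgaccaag
PA2G4P6: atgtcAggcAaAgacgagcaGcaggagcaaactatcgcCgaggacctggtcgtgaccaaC

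Between 1 and 6 of the 60 bases differed in each copy, with 1 difference in NPM1P37 and 6 in NPM1P24, both of which were higher in V, and 6 in PA2G4P6, which was higher in C.

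MYC, NPM1 and PA2G4 were all higher in C, by nearly the same factor. In bulk RNA, more cells that express a gene and more RNA per cell cannot be told apart. Levels per condition were worked out from each gene's mean and fold, with equal numbers of libraries in C and V. MYC (ENSG00000136997, chromosome 8, 127735434 to 127741434 in GRCh38) had derived levels of 2910 normalised counts in C and 1088 in V. Its listed log2 fold change was 1.42 ± 0.09 (standard error) in the authors' deposited table, a 2.68-fold difference with a 95% interval of 2.38 to 3.01. NPM1 (ENSG00000181163, chromosome 5, 171387116 to 171411137) was the most abundant of the 3, at 4826 in C and 1970 in V. Its log2 fold change in the authors' deposited table was 1.29 ± 0.05, or 2.45-fold with an interval of 2.30 to 2.61. PA2G4 (ENSG00000170515, chromosome 12, 56104319 to 56113907) stood at 1530 in C and 571 in V. The authors' deposited table gives it a log2 fold change of 1.42 ± 0.08, or 2.68-fold with an interval of 2.39 to 3.0. The intervals of the levels in C and V did not overlap for any of the 3 genes, which follows from how they were chosen.

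**Figure D1:**
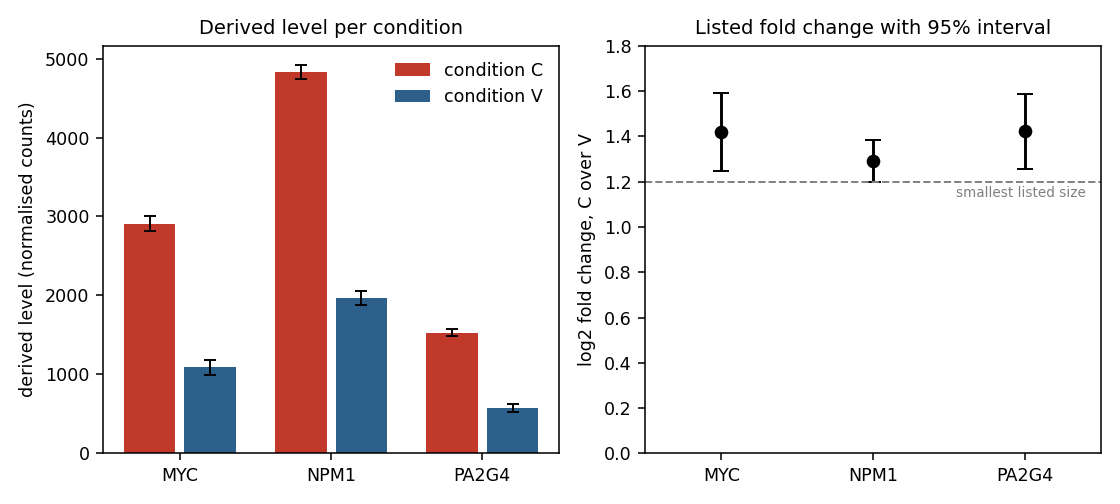
Left, derived levels of MYC, NPM1 and PA2G4 in normalised counts, bars for conditions C and V, with the range that the 95% interval of the fold change gives at the listed mean. Right, the listed log2 fold change of C over V with its 95% interval and the smallest size listed (1.20, dashed). All 3 genes lie above the dashed line, and the NPM1 interval, the narrowest, reaches down to it.

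Among themselves the 3 genes differed little. On the log2 fold change scale MYC minus PA2G4 was -0.0021, with a standard error of 0.12 if the estimates are independent. MYC minus NPM1 was 0.13 (standard error 0.10) and NPM1 minus PA2G4 was -0.13 (standard error 0.10), gaps not beyond their spread. Per kilobase of the longest coding transcript the derived level in C was 2745 normalised counts for NPM1, 1230 for MYC and 594 for PA2G4. In V the order was the same, at 1121, 460 and 222 normalised counts per kilobase. With the union of exons as length the order held, with 1261, 970 and 403 in C.

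These were modest fold changes in well-measured genes. Of the 934 protein-coding genes called as higher in C, whose median log2 fold change was 1.77, 24.2% had a smaller fold change than MYC, 24.5% than PA2G4 and 11.2% than NPM1. By abundance they stood high: only 14 of the 934 had a larger listed mean than NPM1, 42 than MYC and 88 than PA2G4. None of the other genes in that set had a smaller standard error than NPM1 in the authors' deposited table. NPM1 lay 0.092 above the smallest log2 fold change listed, close to where a gene would drop out of the table, and MYC and PA2G4 lay 0.22 above it.

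The called protein-coding genes most like each of the 3 were taken as the 5 nearest in log2 fold change among those with a mean within 2-fold. This rests on 1 comparison and says only that the values are close. For MYC, among 179 candidates, the nearest was PA2G4, followed by the condensin subunit NCAPD2 (1.43), the lipid-synthesis factor SREBF1 (1.44), the RNA polymerase III factor BDP1 (1.44) and C19orf48 (1.38), as log2 fold changes in the authors' deposited table. For NPM1, among 99 candidates, the histone gene H2BC21 (1.29) and the creatine kinase CKB (1.29) were nearest, then TMPO (1.26), PARP1 (1.33) and VPS13A (1.35) in the authors' deposited table. For PA2G4, among 363, MYC came first, then ARHGAP11A (1.42), the replication factor RFC3 (1.43), the mitochondrial ribosomal protein MRPS25 (1.43) and the metal transporter SLC39A8 (1.43) in the authors' deposited table.

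The genes around the 3 were followed in 9 lists of the MYC and nucleolar growth pathway, which hold 274 different genes. Of these, 37 were listed and all 37 were called, 28 as higher in C and 9 as higher in V, the 3 chosen genes included. Without those 3, 34 were called, 25 as higher in C and 9 as higher in V. The median log2 fold change of the 34, which include the noncoding PVT1, was 1.43. Over all called protein-coding genes it was -1.55. No size under 1.20 is listed, so each median tells mainly which direction holds more genes and their gap is no measure of a shift. The lists were chosen with earlier results of these data known, so these counts are a description and test nothing. For scale, 13.7% of the annotated protein-coding genes were called, 4.68% as higher in C; how many of them were measured is not known.

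In the MYC network 6 of 34 genes were called, MYC among them. Of the other 5, 4 were higher in C and 1 was higher in V. The median log2 fold change of these 5 was 1.54. The 1 higher in V was MXD1, which competes with MYC for MAX and had derived levels of 41.9 normalised counts in C and 1364 in V. Its log2 fold change was -5.03 ± 0.16 in the authors' deposited table, the largest size among the 6. PVT1, the long noncoding RNA gene next to MYC, had derived levels of 1409 in C and 376 in V and a log2 fold change of 1.91 ± 0.10 in the authors' deposited table. RUVBL1, an ATPase of chromatin complexes that MYC recruits, was listed at 1.50 ± 0.08, and the mitotic kinase AURKA at 1.55 ± 0.10, in the authors' deposited table. CIP2A, a phosphatase inhibitor that stabilises MYC protein, stood at 1.54 ± 0.16 in the authors' deposited table. MAX itself, MYCN, MYCL, MNT and FBXW7 were among the 28 network genes not listed in the table used here. Of all annotated protein-coding genes, measured or not, 13.7% were called, and the network was not tested against that share.

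Growth genes that MYC is known to induce were called for 10 of 38, with 9 higher in C, which is 23.7% of the list. The median log2 fold change of the 10 was 1.43. Of annotated protein-coding genes 4.68% were called as higher in C, and of listed ones 31.6%. How many annotated genes were measured is not known, and no difference from these shares was tested. Nucleotide synthesis gave IMPDH2, the rate-limiting enzyme of guanine nucleotide synthesis, with derived levels of 3123 normalised counts in C and 924 in V. Its log2 fold change was 1.76 ± 0.06 in the authors' deposited table. The pyrimidine enzyme CAD (1.24 ± 0.09) and the thymidylate synthase TYMS (1.24 ± 0.09) lay close to the smallest listed size in the authors' deposited table. Lactate dehydrogenase LDHA, at 6473 in C and 2005 in V, had a log2 fold change of 1.69 ± 0.08 in the authors' deposited table. RANBP1, a regulator of nuclear transport (1.44 ± 0.09), the sterol-binding membrane protein TMEM97 (1.36 ± 0.09) and the cell-cycle phosphatase CDC25A (1.49 ± 0.12) gave similar values in the authors' deposited table. The telomerase subunit TERT had the largest fold change of the list, 2.81 ± 0.23 in the authors' deposited table, at low derived levels of 126 in C and 18.0 in V. BCAT1, a branched-chain amino acid enzyme, was the 1 gene of the list higher in V, with a log2 fold change of -1.37 ± 0.23 in the authors' deposited table; it was named after its value was seen. ODC1, CDK4, NME1 and SRM did not appear in the table used here.

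Genes that MYC is known to repress were called for 6 of 12, with 4 higher in V and 2 higher in C and a median log2 fold change of -2.04. The cell-cycle inhibitor CDKN1A, which encodes p21, had derived levels of 566 normalised counts in C and 4121 in V, and a log2 fold change of -2.86 ± 0.07 in the authors' deposited table. CDKN2B, which encodes p15, was at 4.24 in C and 403 in V, and GADD45A, a growth-arrest gene, at 39.3 and 495. The log2 fold changes of these were -6.57 ± 0.40 and -3.65 ± 0.17 in the authors' deposited table. CDKN1B, which encodes p27, was listed at -1.22 ± 0.07 in the authors' deposited table. On the opposite side, TXNIP, an inhibitor of glucose uptake, was higher in C at 3899 against 541, or 2.85 ± 0.08 as log2 fold change in the authors' deposited table. The growth factor receptor gene PDGFRB was also higher in C, with 1.78 ± 0.62 listed in the authors' deposited table, at derived levels of 10.2 and 2.96. The list thus did not lie on 1 side. Of listed protein-coding genes 31.6% were called as higher in C and 61.0% as higher in V. The division of the list was close to that background.

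Nucleolar genes were called in few cases, always as higher in C. Over the 3 lists of ribosomal DNA transcription, small-subunit processing and large-subunit assembly, 9 of 117 genes were listed and called, or 7.69%. All 9 were higher in C, and their median log2 fold change was 1.54. Of all annotated protein-coding genes 13.7% were called, 4.68% as higher in C. The share called in either direction was thus below that of all annotated genes, and the share higher in C above it. How many annotated genes were measured is not known, so both differences depend on the base used. Neither was tested.

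For RNA polymerase I and its helpers, 2 of 20 genes were called, with a median log2 fold change of 2.06. TCOF1, whose product treacle holds the ribosomal DNA transcription machinery in the nucleolus, had derived levels of 1825 normalised counts in C and 418 in V. Its log2 fold change was 2.12 ± 0.08 in the authors' deposited table. POLR1G, an RNA polymerase I subunit that the table lists under its older symbol CD3EAP, stood at 2.00 ± 0.15 in the authors' deposited table. Both exceeded MYC in fold change.

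Of 48 genes of small-subunit processing and the snoRNA-protein complexes, 0 were listed in the DESeq2 table. An unadjusted p under 0.05 with a log2 fold change of 1.20 or more in size is what the listed genes share, so this is the same count of 0 and no further check. FBL, NOP56, NOP58 and DKC1, the core proteins of those complexes, are in this group; smaller differences do not appear in the table.

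Large-subunit assembly, the step in which nucleophosmin and PA2G4 themselves act, gave 7 called of 49 genes, all higher in C, with a median log2 fold change of 1.35. LYAR, a nucleolar growth regulator, had the largest log2 fold change at 1.85 ± 0.15 in the authors' deposited table, with derived levels of 295 normalised counts in C and 81.8 in V. MRTO4, which keeps the place of the ribosomal stalk protein (1.59 ± 0.14), and the giant remodelling ATPase MDN1 (1.54 ± 0.09) followed in the authors' deposited table. BOP1 (1.32 ± 0.10) and WDR12 (1.24 ± 0.09) form a complex with PES1, which was not listed beside them in the authors' deposited table. NLE1 (1.35 ± 0.10), a partner of MDN1, and RRS1 (1.26 ± 0.13), which helps dock the 5S particle, completed the group in the authors' deposited table. The 7 values ran from 1.24 to 1.85, a range that includes those of MYC, NPM1 and PA2G4. No size under 1.20 is listed, and the median over protein-coding genes called as higher in C was 1.77. Whether this closeness is particular to these genes was not tested.

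The nucleophosmin list had 3 called of 15 genes, NPM1 itself, CDKN2A and MDM2. CDKN2A, the gene of ARF and of the cell-cycle inhibitor p16, had derived levels of 84.7 normalised counts in C and 519 in V (log2 fold change -2.62 ± 0.18 in the authors' deposited table). A value per gene does not divide these products. MDM2, the ubiquitin ligase that ARF inhibits, had derived levels of 1376 in C and 3208 in V, with -1.22 ± 0.08 listed in the authors' deposited table. NPM2, NPM3 and NCL did not appear in the table used here. Of all annotated protein-coding genes, measured or not, 13.7% were called.

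Among partners and relatives of PA2G4, 3 of 18 were called: PA2G4, MDM2 and E2F1. The cell-cycle factor E2F1 had derived levels of 742 normalised counts in C and 207 in V and a log2 fold change of 1.84 ± 0.12 in the authors' deposited table. ERBB3 and the related METAP1 and METAP2 did not appear in the table used here. The share called was 13.7% over all annotated protein-coding genes, measured or not. Of 46 translation factors 1 was called: EIF1, which selects the start codon, was higher in V, with -1.21 ± 0.06 listed in the authors' deposited table, just past the smallest listed size. At a log2 fold change of 2 or more in size, 9 of the 37 genes were called, 4 as higher in C and 5 as higher in V. Among listed protein-coding genes 48.3% passed that limit, 12.4% as higher in C and 36.0% as higher in V. MYC, NPM1 and PA2G4 were not among them.

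**Figure D2:**
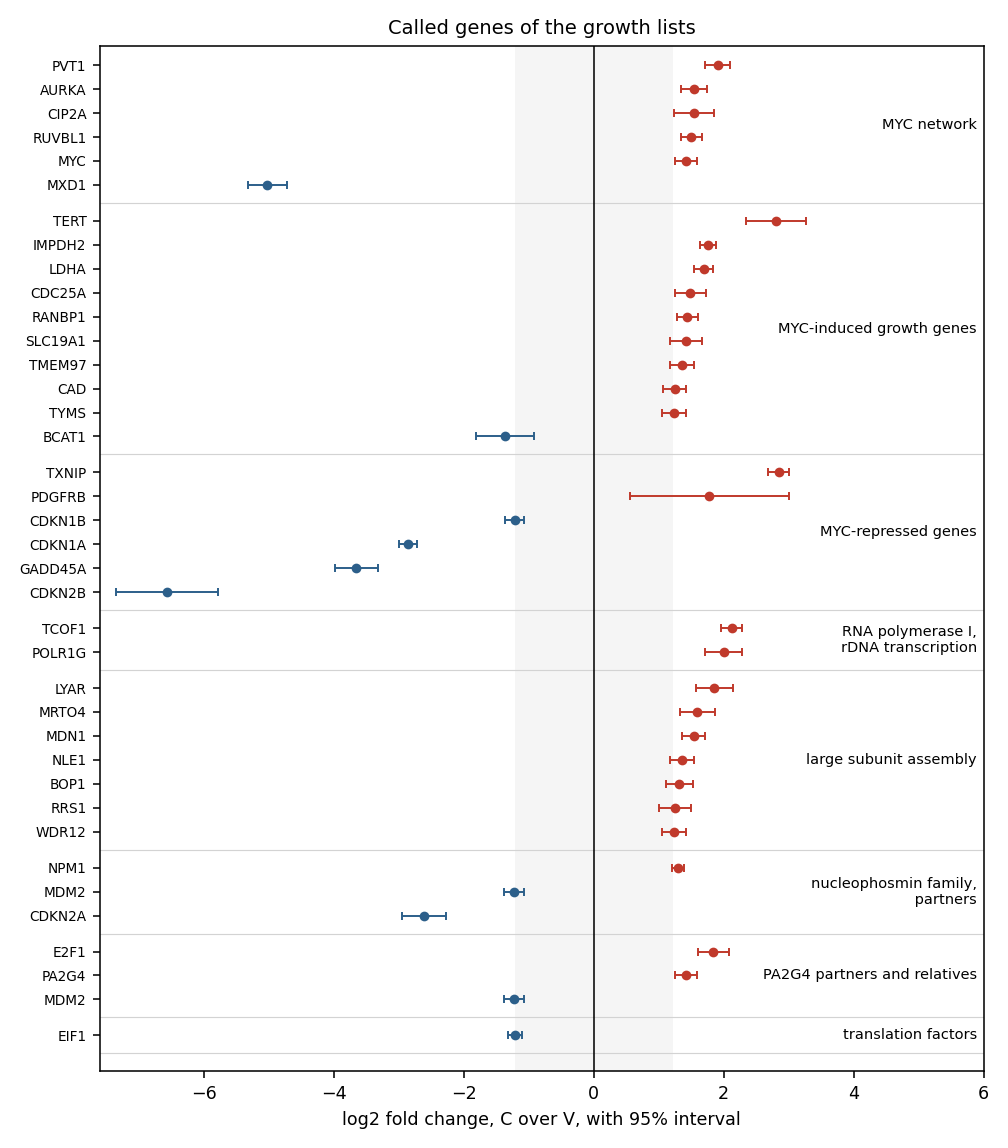
Listed log2 fold change of C over V (x axis) with 95% intervals for the 37 called genes of 8 growth lists, grouped by list, red for higher in C and blue for higher in V; MDM2 appears in 2 lists. The shaded band from -1.2 to 1.2 holds no point because the table lists none there. MXD1, CDKN2B, GADD45A, CDKN1A and CDKN2A lie far to the left.

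The listed processed copies of NPM1 had fold changes in both directions. GENCODE release 29 names 45 copies, of which 15 were listed and 14 called, 11 as higher in C and 3 as higher in V. Among all listed processed pseudogenes 91.7% were called, 64.9% as higher in C and 26.8% as higher in V, so this division is close to that background. NPM1 lies close to the smallest size listed, and 96.9% of the 968 processed pseudogenes called as higher in C had a larger fold change than NPM1. The 11 copies higher in C all did, which is near that background, and for 6 of them the 95% interval lay wholly above that of NPM1. The median log2 fold change of the 14 was 2.43. With a listed mean of 100 or more, 5 gene copies were called, PA2G4P6 among them, and all 5 were higher in C. Of the listed processed pseudogenes 15.4% passed that limit, 11.3% as higher in C and 4.09% as higher in V.

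NPM1P5 on chromosome 15 (92285841 to 92286678) was the most abundant copy, with derived levels of 502 normalised counts in C and 92.2 in V. Its log2 fold change was 2.44 ± 0.12 in the authors' deposited table. NPM1P31 on chromosome 10 (124867510 to 124868326) stood at 402 in C and 42.7 in V, with 3.24 ± 0.14 listed in the authors' deposited table. NPM1P18 and NPM1P12, both on chromosome 7, were listed at 2.91 ± 0.15 and 2.85 ± 0.17 in the authors' deposited table. These 4 copies had the highest listed means among the NPM1 copies.

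The copies farthest from NPM1 lay on both sides of it. NPM1P26 on chromosome 10, opposite in strand to the TM9SF3 gene it overlaps, had derived levels of 96.4 normalised counts in C and 1.59 in V. Its log2 fold change was 5.92 ± 0.51 in the authors' deposited table. NPM1P8 on chromosome X, within DMD on the other strand, was at 176 in C and 4.74 in V, with 5.22 ± 0.33 listed in the authors' deposited table. In the other direction NPM1P46 on chromosome 2 was at 0.907 in C and 70.3 in V, with -6.27 ± 0.86 listed in the authors' deposited table; with a level under 1 in C its size is poorly determined. NPM1P37, on the same strand as its host LMBRD1, and NPM1P24, opposite to OIT3, were listed at -3.80 ± 0.47 and -2.77 ± 0.36 in the authors' deposited table. Neither LMBRD1, OIT3, TM9SF3 nor DMD was listed in the table used here.

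The remaining copies varied in listed mean and in standard error. NPM1P32 (1.98 ± 0.33), NPM1P21 (1.73 ± 0.39) and NPM1P35 (1.71 ± 0.25) had intervals that overlapped that of NPM1 in the authors' deposited table. NPM1P9 (2.41 ± 0.86) and NPM1P14 (3.76 ± 1.25) had listed means of 6.07 and 2.97 in the authors' deposited table. NPM1P22 (4.65 ± 2.08) was listed at a mean of 1.08 and was not called in the authors' deposited table. AC074051.4, an NPM1 copy without a numbered symbol that lies in RBFOX1, was found after the values were seen and is not counted above; it was listed at 2.96 ± 1.19 in the authors' deposited table. PA2G4 had 5 named copies, of which PA2G4P6 on chromosome 9 (89449558 to 89450754) was listed and called. Its derived levels were 255 normalised counts in C and 52.2 in V, and its log2 fold change was 2.29 ± 0.17 in the authors' deposited table, above that of PA2G4.

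**Figure D3:**
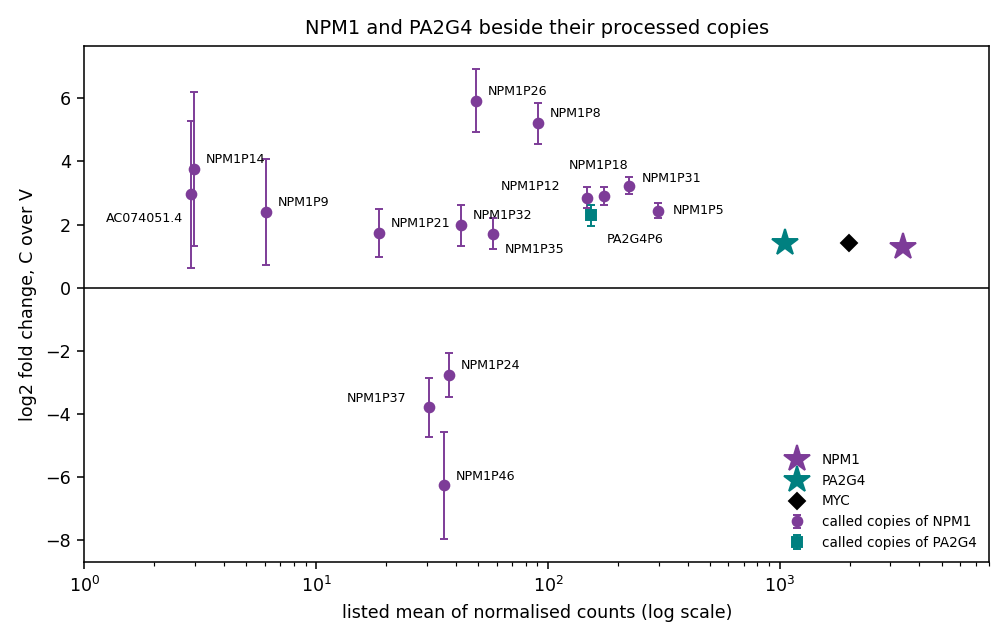
Listed log2 fold change of C over V (y axis, 95% intervals on the copies) against the listed mean of normalised counts (x axis, log scale) for called copies of NPM1 and PA2G4, AC074051.4 included, with the parent genes as stars and MYC as a diamond. The parents and MYC lie together on the right between 1.29 and 1.42, and the copies spread from -6.27 to 5.92.

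How far 50 bp reads can separate these genes was read from annotated transcripts. Of the 2317 stretches of 50 bases in the longest MYC transcript, 0 occurred in a transcript of another gene, also with 1 mismatch allowed. For NPM1 44.4% of 1709 stretches recurred exactly in other genes, and 59.0% with 1 mismatch. For PA2G4 the shares were 35.0% of 2528 and 50.1%. Stretches of NPM1 recurred in 30 genes, 15 of them listed; NPM1P27, which is not listed in the table used here, shared the most, 411 of the 1709. The largest share for PA2G4, 409 stretches, was with AC034102.2, a gene model that overlaps it on the same strand, and AC034102.4 overlaps it on the other.

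Each listed copy was also matched to NPM1 alone, and not to the other copies. The shares below are therefore not comparable with those above, which pool many genes. Aligned to NPM1, the 15 listed numbered copies were 91.1% to 96.1% identical. Between 0.612% and 14.2% of their own 50-base stretches matched NPM1 exactly, and 4.65% to 31.4% with 1 mismatch. The derived levels of the 15 copies summed to 40.6% of the NPM1 level in C and 23.6% in V. Adding them to NPM1 gave 6786 normalised counts in C and 2436 in V, a log2 fold change of 1.48. Adding PA2G4P6 to PA2G4 gave 1.52. These sums hold only copies that the table lists, which it does by the size of their change, and leave out the unlisted ones such as NPM1P27, so they are no estimate for a gene with all its copies. How the authors treated reads that fit several genes is not given in the sources used here, so the division between NPM1, PA2G4 and their copies is uncertain.

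Some genes near the 3 were listed, and whether the surroundings differ between them was not tested. On chromosome 8 the nearest listed genes were both noncoding and both higher in C. PCAT1, a prostate cancer associated transcript ending 316 kb before MYC, was listed at 1.63 ± 0.18, and PVT1, starting 53.1 kb after it, at 1.91 ± 0.10, in the authors' deposited table. Within 1 Mb of the MYC start, a window chosen after the values were seen, 4 of 25 annotated genes were listed and 3 were called, all 3 as higher in C. The third was PRNCR1 (2.29 ± 0.27 in the authors' deposited table), which lies inside the span of PCAT1 on the same strand, so the 2 are not separate. Over all listed genes 89.4% were called, 46.0% as higher in C and 43.4% as higher in V. Whether the genes around MYC differ from these shares was not tested. Copy number was not measured here.

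Within 1 Mb of the NPM1 start 2 of 30 annotated genes were listed and 1 was called. The same window around PA2G4 holds more genes: 10 of 131 annotated genes were listed and 8 were called. KLF3P1, the nearest listed gene after NPM1 at 843 kb, was higher in V, with -2.26 ± 0.44 listed in the authors' deposited table, and AC008514.2, 483 kb before it, was not called (1.24 ± 0.60 in the authors' deposited table). RPL41, a ribosomal protein gene that starts 2.68 kb after PA2G4 on the same strand, was higher in V with derived levels of 2408 normalised counts in C and 6619 in V. Its log2 fold change was -1.46 ± 0.13 in the authors' deposited table. DGKA, a lipid kinase gene 150 kb before PA2G4, was higher in V too, with a log2 fold change of -2.39 ± 0.14 in the authors' deposited table. Of the 8 genes called within 1 Mb of PA2G4, 2 were higher in C and 6 in V. The 2 were PRIM1 and the noncoding AC024884.2. Over all listed genes 46.0% were called as higher in C and 43.4% as higher in V. Over listed protein-coding genes the shares were 31.6% and 61.0%. Whether the division around PA2G4 differs from these shares was not tested.

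**Figure D4:**
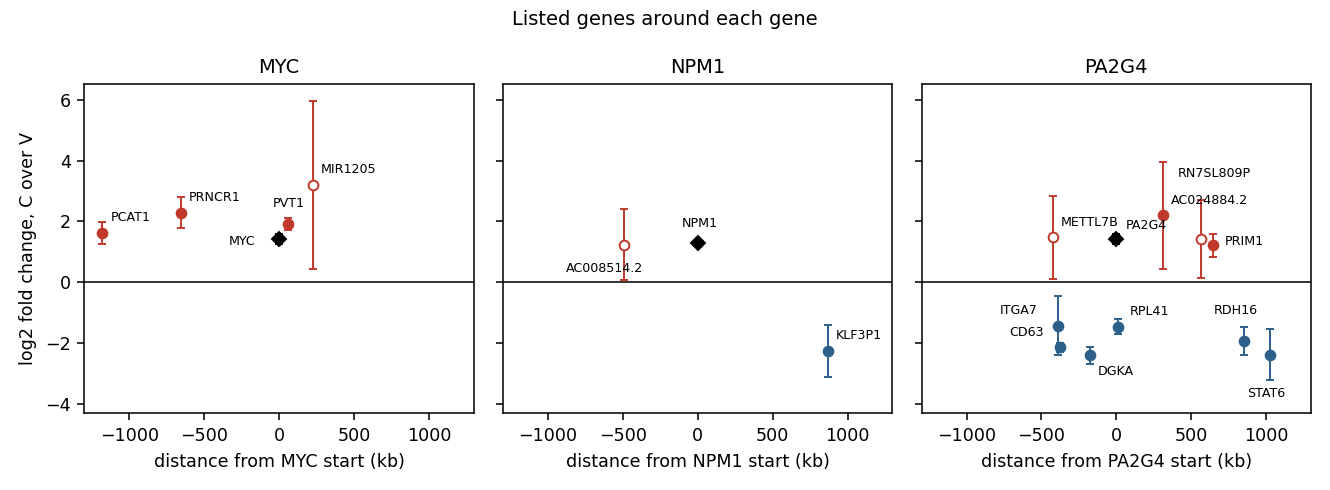
Listed log2 fold change of C over V (y axis, 95% intervals) against distance from the start of MYC, NPM1 or PA2G4 in kb (x axis) for listed genes that reach within 1 Mb, with filled points for called genes, open points for the others and black diamonds for the 3 genes. Called genes around MYC lie above 0, and around PA2G4 6 of 8 lie below 0.

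Markers of prostate luminal cells and of other cell types were read from the same table. Of 9 prostate luminal markers 3 were listed, with KLK3 and KLK2 higher in C and KRT8 higher in V, and their derived levels summed to 19332 normalised counts in C and 7545 in V. FOLH1, TMPRSS2, HOXB13 and KRT18 did not appear in the table used here, so the label could be checked only in part. Of 14 markers of leukocytes, endothelium and fibroblasts 6 were listed and 5 called, 4 of them higher in V. The 1 called as higher in C was the fibroblast marker PDGFRB, at derived levels of 10.2 in C and 2.96 in V. Over all listed genes 89.4% were called, 46.0% as higher in C and 43.4% as higher in V. The derived levels of the 6 listed markers summed to 83.9 in C and 356 in V, most of it from COL1A1, at 72.4 and 294. The leukocyte marker PTPRC was at 0.164 in C and 35.7 in V, and the endothelial PECAM1 at 0.165 and 14.9. All libraries came from a cultured line and its subline, not from tissue. The source of these marker signals was not tested.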

How the data were processed

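RNA-seq of 3 parental and 3 abiraterone-selected C4-2B libraries was used through 1 deposited table; no columns of single libraries were used. The authors compared conditions C and V with DESeq2, per the file headers. The deposited mean normalised count is 1 signal value per gene across the samples, per the file headers. Each log2 fold change comes from the authors' fit by maximum likelihood, and their standard error and Wald statistic are score columns, per the file headers. Each deposited p-value is from a Wald test, and adjustment was by Benjamini and Hochberg's method, per the file headers. FastQC and Cufflinks 2.2.1 are named without a role in the submitters' processing notes. For aligner, counter, build and strand handling, a name or setting was not given in the sources used here.

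Per-condition levels V = 2 × mean / (1 + fold) and C = V × fold were derived with pandas 2.3.3 and Python 3.11.15; the derivation and the 50-base matching were tested on simulated data. For 4 genes an adjusted p of 0 beside a p above 0 was read as not given. Identifiers matched the name table for 5989 of 6018 genes, and GENCODE release 29 held 5935; it need not be the authors' annotation. Transcript stretches were matched on both strands, and identity came from local alignment to the longest coding transcript. The design foresaw values per library and, without them, prescribed counts and description, which was followed. The genes, lists and rules were chosen with earlier results of these data known. Named were the 3 genes, all called genes of the MYC network, MYC-repressed, nucleophosmin and PA2G4 lists, up to 8 called genes of smallest p in other lists, all listed copies, the 5 most alike genes and the nearest listed neighbours. Other genes are named as exceptions or as not listed.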

Additional observations from a re-analysis of the deposited data

How the results depend on the processing

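No paired analysis was possible because no values per library were used, and for the same reason no library could be left out. The counts of called genes in the 9 lists, in their union and among the copies stayed within 1.5 times under an adjusted p under 0.01 and under a 95% interval beyond a log2 of 1. At a log2 fold change of 2 or more in size the union fell from 37 to 9, the MYC network, the MYC-induced genes and the nucleophosmin list to 1 each, and large-subunit assembly, PA2G4 partners and translation factors to 0. A listed mean of at least 100 left 5 of 15 called copies of NPM1 and PA2G4, all 5 higher in C. Subtracting the median of listed protein-coding genes gave log2 fold changes of 2.97 for MYC, 2.85 for NPM1 and 2.98 for PA2G4; in a table without small changes that median is no estimate of scale. Adding the listed copies only, an alternative chosen after seeing the data, gave 1.48 for NPM1. With 2 libraries in C and 3 in V, derived levels in C and V were 3202 and 1197 for MYC, 5269 and 2151 for NPM1, and 1683 and 628 for PA2G4. With 3 in C and 2 in V they were 2667 in C for MYC, 4452 and 1817 for NPM1, and 1402 and 523 for PA2G4. Allowing 1 mismatch raised the shared stretches to 59.0% for NPM1 and 50.1% for PA2G4.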
